A study of Mus musculus with 2 samples.

Results

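Resting general capillary cells were studied in mouse lungs 6 h after an intravenous injection of PBS or of melanoma cells. They were chosen by what was measured in each cell. A member was a barcode with 1000 to 5000 detected genes, under 20% mitochondrial UMIs (unique molecular identifiers, the counted molecules), UMIs of at least 2 of the endothelial genes Pecam1, Cdh5, Cldn5 and Egfl7 and 0 UMIs of the leukocyte gene Ptprc. It also held at least 3 of 6 general capillary markers (Gpihbp1, Aplnr, Kit, Lpl, Cd300lg and Ptgs1) and at most 1 gene of each of 6 sets that mark aerocytes (Ednrb, Fibin, Tbx2), arteries (Gja5, Bmx, Fbln5), veins (Slc6a2, Car8, Bst1), an interferon response (Ifit1, Ifit3, Rsad2), reactive capillary cells (Inhbb, Mt2, Fosl1) and platelets (Pf4, Itga2b). The rule kept 7131 of the 13600 called barcodes, which were 3913 control and 3218 metastatic barcodes. The 13035 barcodes that met the first part of the rule are called endothelial cells here.

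The alveolar wall is lined by capillary endothelial cells of different kinds. General capillary cells are smaller and form the plexus that supplies and repairs it, whereas aerocytes are large, thin cells spread over the surface where gas is exchanged. General capillary cells carry Gpihbp1, which anchors lipoprotein lipase (Lpl) at the luminal surface, and the receptors Kit and Aplnr. Circulating tumour cells arrest first in these vessels.

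The control group was 1 library from the lungs of wild-type C57BL/6 mice that received PBS by the tail vein. The metastatic group was 1 library from the same strain and genotype, injected with B16-F10 cells, a mouse skin melanoma line that had been labelled with a green dye. According to the study's methods the injected mice were young adult males. Each mouse received 200000 cells, in 100 µl of PBS, and lungs were taken after 6 h. Cells of 2 mice were pooled in each library and sorted on Pecam1 alone, without a gate against leukocytes, and no label ties a barcode to a mouse. With 1 library in each group no test between groups was possible, so all 95% intervals below cover counting error only, and neither the spread between mice nor that between libraries was measured. PCR duplicates were removed through the UMIs.

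The 2 libraries held 67929614 and 64733724 UMIs in total, and their members held medians of 5937 UMIs and 2494 genes in the control library and 6243.5 UMIs and 2584 genes in the metastatic library. Mitochondrial UMIs took medians of 2.75% and 2.73%. Of the called barcodes 16 were called in both libraries, and 6 of these were members in both. RNA of other cells was present in members. Free RNA, estimated from endothelial and general capillary transcripts of the rule in lymphoid cells, came to 9.86% of control and 6.98% of metastatic UMIs. With free RNA taken only from barcodes not shared between the libraries it came to 6.52% and 4.34%. These lymphoid cells held at least 2 of the lymphoid markers named below and under 2 of Pecam1, Cdh5, Cldn5 and Egfl7. Cells with more endothelial RNA were thus left out before it was measured, so the estimates can be too low. Erythroid markers summed to 1891 CPM (UMIs per 1e+06 UMIs) in control and 1018 CPM in metastatic members, epithelial markers to 1730 and 1324 CPM and myeloid markers to 275 and 204 CPM. The surfactant gene Sftpc had a UMI in 43.8% and 38.4% of members. The part of this RNA in the results was not tested beyond the settings given in the closing section. Lymphoid markers (Cd3e, Cd3d, Nkg7, Cd79a and Ms4a1) summed to 1.97 and 2.01 CPM in members, against 2815 and 2947 CPM in the lymphoid cells of the same libraries. Melanoma markers (Pmel, Mlana, Dct, Tyrp1 and Tyr) summed to 1.97 and 2.57 CPM.

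Members made up 56.9% of endothelial cells in the control library (95% exact binomial interval 55.7 to 58.1) and 52.3% in the metastatic library (51.0 to 53.5). The difference was −4.63 percentage points (−6.35 to −2.90). When every cell was thinned to 2000 UMIs before the rule was applied, which leaves fewer markers detected, the shares were 50.4% (3388 of 6726 cells) and 42.8% (2569 of 6002 cells). Fewer members and fewer marker UMIs per cell cannot be told apart in such a share. Just inside the limit on markers, 1149 control members held 3 of the 6 markers, with a median of 5207 UMIs, 1205 CPM of Plvap and 7872 CPM of Hpgd. Just outside it, 408 control cells with 2 markers held a median of 4198.5 UMIs, 880 CPM of Plvap and 7039 CPM of Hpgd. In the metastatic library 1241 members held 3 markers and 428 cells held 2.

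The label was set beside genes that the rule did not use. Of 18 such general capillary genes, 17 were at least 2-fold higher in members than in aerocytes in both libraries, as were 8.10% of all 9780 genes with enough UMIs. Of 12 further aerocyte genes, 12 were at least 2-fold lower, as were 4.75% of all genes. Members and aerocytes were set apart by general capillary and aerocyte markers, so genes that vary with these markers differ by construction. The lists were also chosen with earlier results of these data known, so the counts are a description. Resting here means only that at most 1 reactive marker was detected. Inhbb, which encodes an activin subunit and was one of the excluded markers, had a UMI in 2.20% of control members and 6.71% of metastatic members.

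Before the results by gene, the spread of 1 set of genes inside the metastatic library has to be described. Zbtb16, a zinc-finger transcription factor gene induced by glucocorticoids, had a UMI in 88.6% of control members but in only 42.3% of metastatic members. At 2000 UMIs per cell the shares were 60.1% (58.5 to 61.7) and 27.5% (26.0 to 29.1). At that depth no lymphoid cell held a Zbtb16 UMI (0 of 44 and 0 of 41 thinned cells, which allows shares of up to 6.82% and 7.32%). Lymphoid cells had been chosen with under 2 endothelial genes detected. Counts of endothelial transcripts in them are low in part by this choice, and the limits hold for such cells only. At full depth, among the lymphoid cells with the depth used for the score, 27 of 29 control and 30 of 31 metastatic cells had no Zbtb16 UMI. The metastatic members were not evenly lower. Some had few of these transcripts and others about as many as control members.

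The spread was measured with a score, the summed UMIs of Fkbp5, Tsc22d3, Zbtb16, Per1, Klf9, Ddit4 and Map3k6 per 10000 UMIs of a cell. These 7 genes respond to glucocorticoids and were picked after their values had been seen. They are those of the 12 listed glucocorticoid-responsive genes that were at least 0.5 lower on the log2 scale in the metastatic library. A lower score in that library therefore follows in part from this choice. The other listed genes, left out of the score, are given below. Members under 4000 UMIs and those carrying surfactant or globin RNA were left out, which kept 3362 control and 2789 metastatic members. The control scores had 1 peak, at 18 to 20, with 10.3% of cells in that bin. The metastatic scores had their peak at 2 to 4 (12.7% of cells), and from 12 to 28 the bins held between 2.98% and 4.20% of cells, with no clear second peak. The ranges are therefore limits set on a spread of scores, and whether they hold separate groups of cells was not tested. Scores under 10 are called low and scores of 14 or more high.

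**Figure D1:**
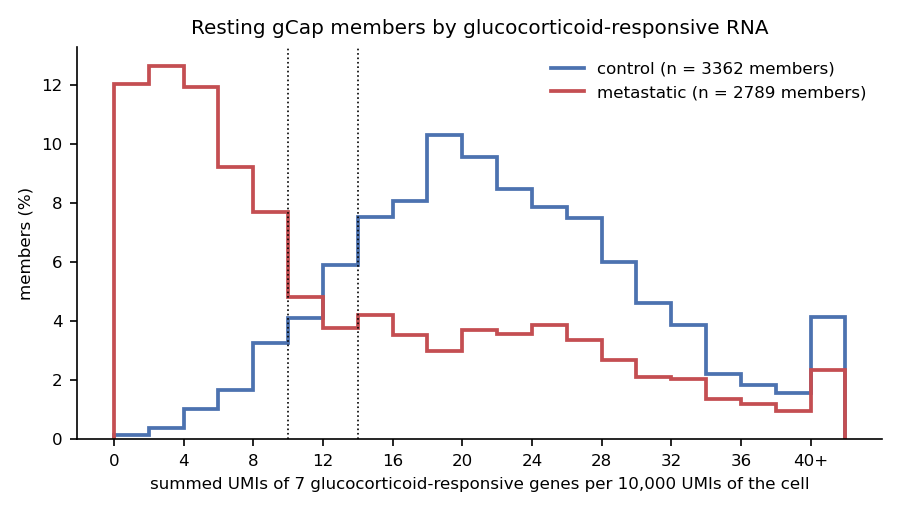
Histograms of the score of 7 glucocorticoid-responsive genes (x axis, summed UMIs per 10000 UMIs of a cell) as the percent of resting general capillary cells in each bin (y axis), for the control and the metastatic library, with the limits of the low and the high range marked. Control cells form 1 peak at 18 to 20, whereas metastatic cells have a peak at 2 to 4 and a flat stretch of 2.98% to 4.20% a bin from 12 to 28.

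Low scores were held by 6.48% of control members (218 cells, 5.68 to 7.37%) and 53.6% of metastatic members (1494 cells, 51.7 to 55.4%). High scores were held by 83.5% (2808 cells) and 37.9% (1056 cells). The remaining 9.99% and 8.57% lay between the limits. The same shift was present in other endothelial cells: low scores were held by 20.03% of control and 65.6% of metastatic aerocytes, by 10.6% and 40.0% of venous cells, and by 8.71% and 56.2% of all endothelial cells. A library pools 2 mice, so a difference between cells and a difference between the pooled mice cannot be told apart.

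Depth was similar in the ranges, whereas computed doublets were not. The median was 6877.5 UMIs in low-score metastatic members, 6277 in high-score ones and 6279 in control members. Mitochondrial UMIs took a median of 2.69% in both metastatic ranges. Computed doublets made up 2.14% of the low range and 5.68% of the high range, against 4.16% of control members. Platelet markers summed to 20.7, 36.2 and 21.8 CPM in the low range, the high range and the control members, and epithelial markers to 102, 120 and 132 CPM. The part of these differences in the results was not tested. Fewer low-score cells met the rule for members: 51.4% (49.6 to 53.2) of low-score and 60.5% (58.2 to 62.8) of high-score endothelial cells of the metastatic library did so, with a mean of 3.18 and 3.68 of the 6 markers.

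Since the ranges were cut on a score from these cells, genes that vary with the score differ between them by construction, and their values are a description. Of 3831 genes, 218 (5.69%) were at least 0.5 higher on the log2 scale in the low range than in all control members, and 203 (5.30%) were at least 0.5 lower. Of 3675 genes, only 12 (0.327%) were higher and 10 (0.272%) lower in the high range than in control members. The low and the high range of the metastatic library differed in 250 genes (6.50%) and 239 genes (6.22%) of 3844, higher and lower in the low range. With stricter limits (under 6 and at least 18), 234 (6.08%) were higher and 213 (5.54%) lower in the low range than in control members, and 17 (0.463%) and 19 (0.518%) in the high range. Of the low-score members, 52 of 218 control and 1022 of 1494 metastatic ones scored under 6. The 2 low ranges were thus not alike in score. Within the control library the low range differed from the high range in fewer genes, with 32 of 3778 (0.847%) higher and 55 (1.46%) lower. In that comparison, looked at after its values had been seen, Bcl2l1 stood at 166 CPM in low-score and 270 CPM in high-score control members (−0.70), Atp8b1 at 60.3 and 36.3 CPM (0.73) and Plac8 at 61.0 and 19.0 CPM (1.69). Lrg1 stood at 176 and 76.4 CPM (1.20) and Fabp4 at 6.54 and 82.3 CPM (−3.65). Cd74, at 235 and 118 CPM (0.995), was higher in low-score control members. Between the metastatic ranges it had the opposite order, with the higher ratio to control members in the high range, as given below.

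Across all members, 80 of 3744 genes (2.14%) were at least 0.5 higher on the log2 scale in the metastatic library and 70 (1.87%) at least 0.5 lower. The median ratio of all genes was 0.02, and the central 95% of genes lay between −0.44 and 0.47. These genes had at least 50 CPM in either library and 100 UMIs in all. For the gene lists below, genes with 100 UMIs in all were counted at any CPM. With that filter 391 of 10614 genes (3.68%) were past the limit of 0.5 upwards and 242 (2.28%) downwards, with a median of 0.02. In the low range 7.43% and 5.42% of 10118 genes were past it upwards and downwards, and in the high range 1.45% and 1.51% of 9967 genes.

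Zbtb16 stood at 503 CPM in control and 214 CPM in metastatic members, a log2 ratio of −1.23 (−1.28 to −1.18). It lies on chr9:48654297-48836222 on the minus strand (GRCm38, the build of all positions here). In low-score metastatic members it stood at 20.03 CPM and in high-score ones at 542 CPM. Fkbp5, a co-chaperone of the glucocorticoid receptor, stood at 116 and 63.3 CPM (−0.88, −0.97 to −0.78). Per1, a repressor in the circadian clock that glucocorticoids also induce, stood at 63.3 and 34.4 CPM (−0.88). Of the 12 genes on the list of glucocorticoid-responsive genes, 7 were past the limit of 0.5 downwards and none upwards. Their median was −0.59, against 0.02 for all genes.

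The list did not move as a whole. Klf9, a Krüppel-like factor, had a ratio of −0.67, Tsc22d3, which encodes the anti-inflammatory protein GILZ, −0.72, and Ddit4, an inhibitor of mTORC1 signalling, −0.51. Sgk1, a kinase gene of the same hormone response, had 284 and 317 CPM (0.16), and the phosphatase gene Dusp1 had 498 and 489 CPM (−0.03). The metallothionein gene Mt1 had 23.6 and 33.3 CPM (0.50, 0.34 to 0.66). The 5 genes of the list that were not in the score had a median of −0.13 in the low range and 0.05 in the high range, against 0.04 and −0.01 for all genes.

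Other genes among the 12 lowest followed the score without having been used for it. Fam107a, which encodes an actin-associated protein, stood at 119 CPM in control members, 12.1 CPM in the low range and 126 CPM in the high range. Bcl2l1 encodes the survival protein Bcl-xL and stood at 256, 60.4 and 263 CPM. Over all members its values were 255 and 139 CPM, a ratio of −0.88 (−0.94 to −0.81). The ratio of the low range to control members was −2.24 for Myrip, a linker between myosin and secretory vesicles, and −2.06 for the sphingomyelin synthase gene Sgms1. In the high range these ratios were 0.07 and 0.06. Sema5a, a semaphorin gene, was lower in both ranges, at −1.15 and −0.68.

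The remaining genes of the 12 lowest were globins. Hbb-bs stood at 926 and 479 CPM (−0.95), and Hba-a1 and Hba-a2 had ratios of −0.85 and −0.87. These transcripts belong to red blood cells, and 14 control and 7 metastatic members held 73.8% and 72.6% of all globin UMIs of members. In members without such a load the ratio of Hbb-bs was −0.93 in the low range and −0.75 in the high range. The share of members with at least 2 erythroid genes was 67.4% in the control and 40.0% in the metastatic library.

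Promoters of 2 of the lowest genes held the letters of a full glucocorticoid receptor motif. The motif searched was GNACANNNTGTNC, a palindrome that reads the same on both strands, in the window from 250 bases before to 50 bases after each transcription start of RefSeq (GRCm38.p6). It was present in 156 of 32851 promoters (0.475%) and in promoters of 0.537% of 27025 genes. Among the 12 lowest genes 11 had a promoter in the table and 2 of these held it, Fam107a and Map3k6, and among the 12 highest genes 0 of 7 did. On the list of 12 glucocorticoid-responsive genes 10 had a promoter and 3 held it (Sgk1, Map3k6 and Mt1). Fkbp5 had no match in this window, which says only that these letters are not in it. Zbtb16 was not in the table. Both promoters are shown, with the match in capitals, since these genes differed between the ranges with and without being part of the score. That of Map3k6, a stress-activated kinase gene, spans chr4:133240568-133240867 on the plus strand, and that of Fam107a spans chr14:8309730-8310029 on the minus strand. A second RefSeq start of Fam107a, 2 bases away, holds the same match.
Map3k6: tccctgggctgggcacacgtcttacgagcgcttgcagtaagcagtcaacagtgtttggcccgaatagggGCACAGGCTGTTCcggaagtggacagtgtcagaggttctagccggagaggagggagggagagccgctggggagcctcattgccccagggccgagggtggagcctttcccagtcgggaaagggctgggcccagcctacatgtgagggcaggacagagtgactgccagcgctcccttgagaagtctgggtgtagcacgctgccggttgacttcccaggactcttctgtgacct
Fam107a: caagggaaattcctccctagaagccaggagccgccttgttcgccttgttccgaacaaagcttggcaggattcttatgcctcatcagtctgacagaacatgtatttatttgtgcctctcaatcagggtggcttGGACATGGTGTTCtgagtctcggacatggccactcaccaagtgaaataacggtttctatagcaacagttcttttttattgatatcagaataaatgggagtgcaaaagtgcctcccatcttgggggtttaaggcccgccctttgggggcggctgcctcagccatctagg

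The match lay 181 to 169 bases before the start of Map3k6 and 118 to 106 bases before that of Fam107a. Beside these sequences stand the values already given. Fam107a was 3.29 lower on the log2 scale in the low range than in control members and 0.09 higher in the high range, and Map3k6, which was part of the score, stood at 54.2, 9.79 and 56.6 CPM in control members, the low range and the high range.

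The 12 highest genes were mixed in kind. Atp8b1, a phospholipid flippase gene, stood at 37.8 and 88.1 CPM, a log2 ratio of 1.22 (1.11 to 1.33). Sox4, a transcription factor gene on chr13:28948919-28953713, stood at 89.3 and 189 CPM (1.08, 1.01 to 1.16). Tnfsf10 encodes the death ligand TRAIL, lies on chr3:27317028-27342427 and stood at 214 and 392 CPM (0.87, 0.82 to 0.92). At 2000 UMIs per cell a Tnfsf10 UMI was found in 33.4% of control and 47.9% of metastatic members, and in none and 2.44% of the lymphoid cells. Those lymphoid cells held under 2 endothelial genes by choice. Tmtc2, an endoplasmic reticulum glycosyltransferase gene, had a ratio of 1.11 and Nckap5 had 118 and 235 CPM (1.00, 0.93 to 1.06). Arrdc4, an arrestin-domain gene, Hspa1b, an inducible Hsp70 chaperone gene, and Pcp4l1 had ratios of 1.00, 0.99 and 0.94. The chemokine gene Cxcl16 and the interferon-inducible GTPase gene Gbp4 had ratios of 0.91 and 0.89.

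Of the 12 highest genes, 11 had a ratio of at least 0.5 in the low range and 2 in the high range. Atp8b1 had a ratio to control members of 1.67 in the low range and 0.07 in the high range. The ratios were 1.44 and −0.12 for Nckap5, 1.58 and −0.05 for Tmtc2, and 1.20 and 0.14 for Tnfsf10. Cd74 and Fabp4 were those past 0.5 in the high range. Cd74, the invariant chain of MHC class II, was higher in both ranges, at 1.02 and 1.62. Fabp4, a fatty acid binding protein gene, had 0.12 in the low and 1.19 in the high range, and 10 control and 11 metastatic members held 92.7% and 91.0% of its UMIs, with 5.35 and 13.7 CPM in the other members. Without the 1% of members highest for it the ratio was 1.63.

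**Figure D2:**
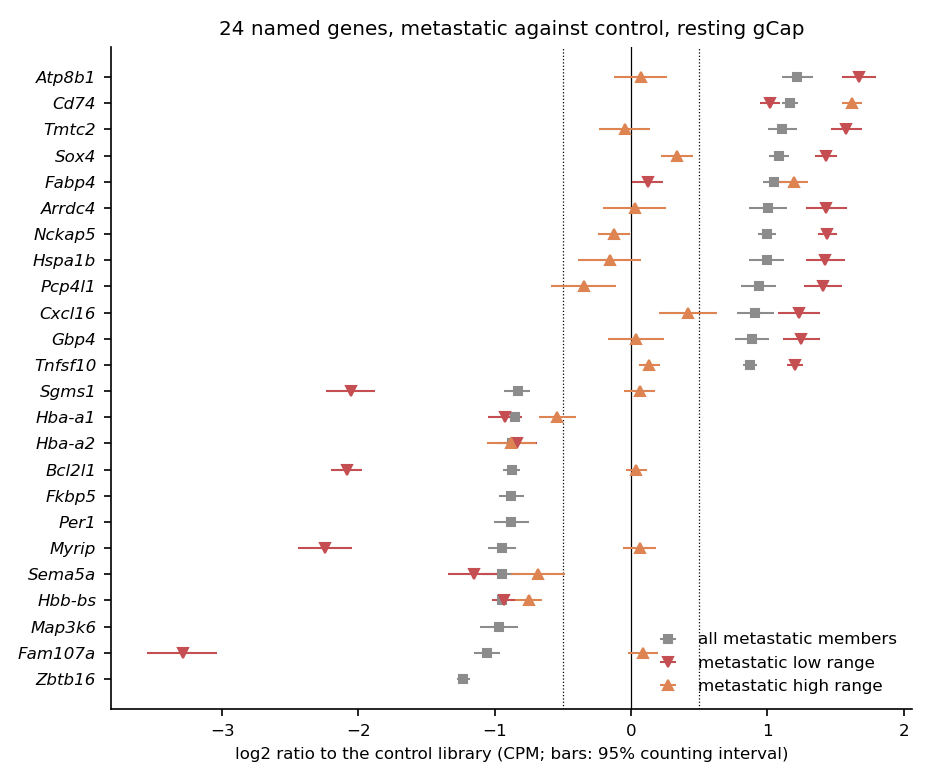
Log2 ratios of metastatic to control resting general capillary cells (x axis) for the 12 highest and 12 lowest genes (y axis), over all members with 95% counting intervals and for the low-score and high-score metastatic members against all control members. The 4 genes of the score have no range values. Ratios in the low range lie farther from 0 than those over all members for most genes, and those in the high range lie within 0.5 of 0 except for Cd74, Fabp4, Sema5a and the globins.

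The 24 genes kept their direction in most strata of depth and marker number. When members were split by marker number (3, 4 and 5 or 6) and by depth, 20 of the 24 genes had the same direction in all 6 strata. The exceptions were Hbb-bs, Hba-a1 and Hba-a2 in members with 4 markers and Fabp4 in those with 5 or 6 markers and in those over 8000 UMIs.

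MHC class II genes were higher in the metastatic library in both ranges. Endothelial cells of the lung carry these genes at a low level, and their products present peptides to helper T cells. Cd74 stood at 152 and 340 CPM (1.17, 1.11 to 1.22), H2-Aa at 96.4 and 141 CPM (0.55, 0.47 to 0.62), H2-Ab1 at 117 and 163 CPM (0.48) and H2-Eb1 at 71.2 and 112 CPM (0.65). Of the 7 genes of the list 5 were past the limit upwards, with a median of 0.65. The median was 0.63 in the low range and 0.70 in the high range. Their transactivator gene Ciita differed between the ranges: it stood at 6.70 CPM in control members, 19.6 CPM in the low range and 7.89 CPM in the high range.

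Members with at least 3 of Cd74, H2-Aa, H2-Ab1 and H2-Eb1 were 738 of 3913 in the control library (18.9%, 17.6 to 20.1) and 1059 of 3218 in the metastatic library (32.9%, 31.3 to 34.6). At 2000 UMIs per cell the shares were 5.14% (4.46 to 5.88) and 10.7% (9.63 to 11.8). Aerocytes, counted in the same way without thinning, had 2 of 704 and 10 of 549 such cells, which is 0.284% and 1.82%, at medians of 7399.5 and 7427 UMIs. In the metastatic library the thinned share was 8.90% (7.51 to 10.5) in the low range and 13.0% (11.005 to 15.2) in the high range, and in the control members that were scored it was 4.997% (4.29 to 5.79).

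**Figure D3:**
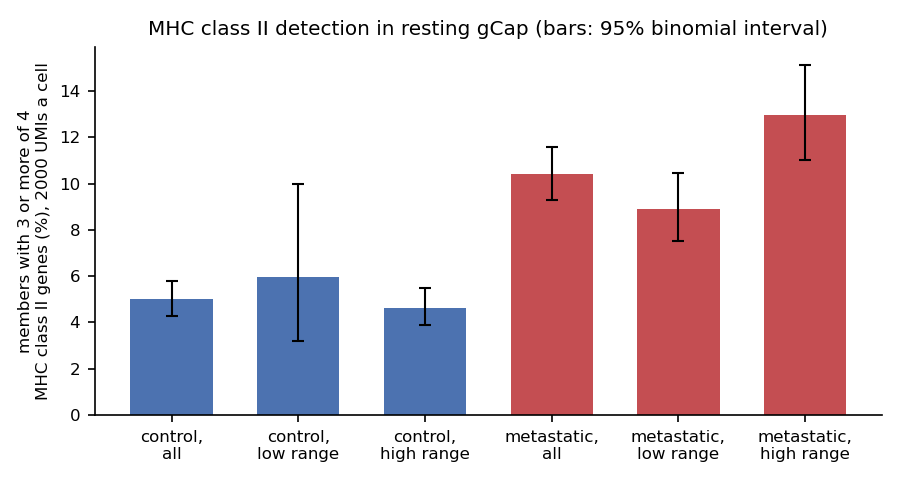
Percent of resting general capillary cells with at least 3 of 4 MHC class II genes after thinning to 2000 UMIs (y axis), for all scored cells, the low-score and the high-score cells of each library (x axis), with 95% exact binomial intervals for counting error. The metastatic values lie between 8.90% and 13.0% and the control values between 4.63% and 5.96%.

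Lymphoid cells also carry these genes, and 31 of 44 and 24 of 41 of them held at least 3. For the values that follow in this paragraph, members carrying surfactant or globin RNA were left out. That left 726 positive members of 3888 in the control and 1049 of 3202 in the metastatic library. The removal also lowered myeloid values, since Lyz2 stood at 265 and 197 CPM over all members. In the positive members of the control and the metastatic library the B cell gene Cd79a stood at 1.70 and 0.65 CPM, and the myeloid gene Csf1r at 0.755 and 0.52 CPM. The myeloid gene Cd68 stood at 4.15 and 3.0005 CPM and Lyz2 at 39.6 and 26.9 CPM, for Lyz2 0.34 (0.10 to 0.56) higher than in other members in the control and −0.17 (−0.42 to 0.08) in the metastatic library. Their part in the class II values was not tested. Beside class II genes, the positive members differed from the others in further genes. Lrg1, a leucine-rich glycoprotein gene, was higher than in other members by 0.75 in the control and 0.67 in the metastatic library, the taurine transporter gene Slc6a6 by 0.44 and 0.74, and Sema3c by 0.37 and 0.36. Ivns1abp was lower by −0.76 and −0.73, Plvap by −0.39 and −0.28, and the arterial ligand gene Efnb2 by −0.43 and −0.27. H2-DMb1, which with H2-DMa helps to load peptides on class II molecules, was higher by 2.35 and 2.01, and H2-DMa by 2.20 and 1.998. Fabp4 was lower by −4.63 and −4.14, but 10 control and 11 metastatic members held 92.7% and 91.0% of its UMIs over all members. These ratios thus rest mostly on where those few members fell. Positive members were deeper, with medians of 6595 and 6811 UMIs against 5772.5 and 5988 UMIs, and the part of depth in these values was not tested.

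The Y box, ATTGG on either strand, is a part of the promoter module of class II genes. It was present in 37.4% of all promoters of this length and in promoters of 41.1% of genes, and in those of 4 of the 4 class II genes that were in the table. The promoters of H2-Aa, on chr17:34287774-34288073 of the minus strand, and of H2-Eb1, on chr17:34305617-34305916 of the plus strand, are shown because both genes were higher in both ranges. Capitals mark each Y box.
H2-Aa: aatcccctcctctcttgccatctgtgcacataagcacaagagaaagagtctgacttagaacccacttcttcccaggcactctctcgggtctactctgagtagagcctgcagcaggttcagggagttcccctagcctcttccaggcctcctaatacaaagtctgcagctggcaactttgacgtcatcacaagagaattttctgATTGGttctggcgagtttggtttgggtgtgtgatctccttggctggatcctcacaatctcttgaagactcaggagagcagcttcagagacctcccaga
H2-Eb1: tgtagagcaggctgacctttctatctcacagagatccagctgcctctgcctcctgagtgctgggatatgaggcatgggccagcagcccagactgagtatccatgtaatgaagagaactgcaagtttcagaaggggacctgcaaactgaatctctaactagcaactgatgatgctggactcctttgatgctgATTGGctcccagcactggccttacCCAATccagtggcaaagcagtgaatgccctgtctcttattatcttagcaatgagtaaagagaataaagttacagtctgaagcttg

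The letters matched 48 to 44 bases before the start of H2-Aa, and 59 to 55 and 35 to 31 bases before that of H2-Eb1. Since so many promoters hold these letters, the match is a description and does not mark these genes out.

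Genes of the inflammatory factor NF-kB were higher as a list, mainly in the low range. Of 13 genes 9 had enough UMIs, and 6 of these were past the limit upwards, with a median of 0.73. The pathway subunit gene Relb stood at 22.2 and 36.6 CPM (0.72, 0.56 to 0.88) and Nfkb2 at 10.3 and 19.9 CPM (0.95, 0.72 to 1.18). Its feedback inhibitor gene Tnfaip3 stood at 8.30 and 13.7 CPM (0.73), whereas Nfkbia, another inhibitor gene, stood at 1348 and 1250 CPM (−0.11). Of the adhesion genes, Icam1 stood at 193 and 260 CPM (0.43) and Vcam1 at 9.55 and 17.6 CPM (0.88). E-selectin (Sele) had 0.28 and 4.21 CPM, with 97 UMIs in all, under the limit for the list. The median of the list was 0.96 in the low range and 0.29 in the high range.

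Of the JAK-STAT genes, which carry signals of interleukin-6 and related cytokines, 2 of 11 were past the limit upwards, with a median of 0.27. One of these was Bcl3, at 17.0 and 41.9 CPM (1.31, 1.14 to 1.47). Bcl3 stood at 58.2 CPM in the low range and 19.6 CPM in the high range. The 6 other markers of reactive capillary cells had a median of 0.31, and Bcl3 was the 1 gene past the limit. The study chose these markers on samples that include these libraries, so their direction is not independent evidence.

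Interferon-responsive genes other than the 3 in the rule had a median of 0.32, and 4 of 13 were past the limit upwards. Ifi47, a GTPase gene, stood at 88.9 and 145 CPM (0.70) and Isg15, a ubiquitin-like modifier gene, at 69.7 and 102 CPM (0.55). The median was 0.52 in the low range and 0.02 in the high range. MHC class I genes had a median of 0.31, and 0 of 9 were past the limit. H2-K1 stood at 1692 and 2102 CPM (0.31), H2-D1 at 2583 and 2662 CPM (0.04) and the immunoproteasome gene Psmb8 at 217 and 304 CPM (0.49).

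Genes for secreted signals had a median of 0.32, and 4 of 16 were past the limit upwards. Vegfa stood at 162 and 291 CPM (0.85, 0.79 to 0.90), Hgf, the hepatocyte growth factor gene, at 21.9 and 47.1 CPM (1.10, 0.95 to 1.26), Pdgfa at 21.7 and 41.0 CPM (0.92) and Hbegf at 38.4 and 62.8 CPM (0.71). In the low range these genes had ratios of 1.20, 1.43, 1.28 and 1.08, and in the high range of −0.01, 0.38, 0.16 and −0.22. Kitl, the ligand of Kit, stood at 662 and 611 CPM (−0.12). The median of the list was 0.44 in the low range and −0.01 in the high range.

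Of 22 receptor genes 3 were past the limit upwards and 1 downwards, with a median of 0.09. Kdr, the main receptor of VEGF-A, stood at 237 and 383 CPM (0.69, 0.64 to 0.74), and its co-receptor gene Nrp1 at 333 and 492 CPM (0.56). The adenosine receptor gene Adora2a stood at 2.61 and 8.97 CPM (1.78). The muscarinic receptor gene Chrm2 was the 1 lower gene, at 120 and 67.5 CPM (−0.83, −0.92 to −0.74). Kdr stood at 239 CPM in control members, 486 CPM in the low range and 225 CPM in the high range, and Chrm2 at 121, 37.2 and 120 CPM. Ramp2, a partner of the adrenomedullin receptor, stood at 3563 and 3387 CPM (−0.07).

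**Figure D4:**
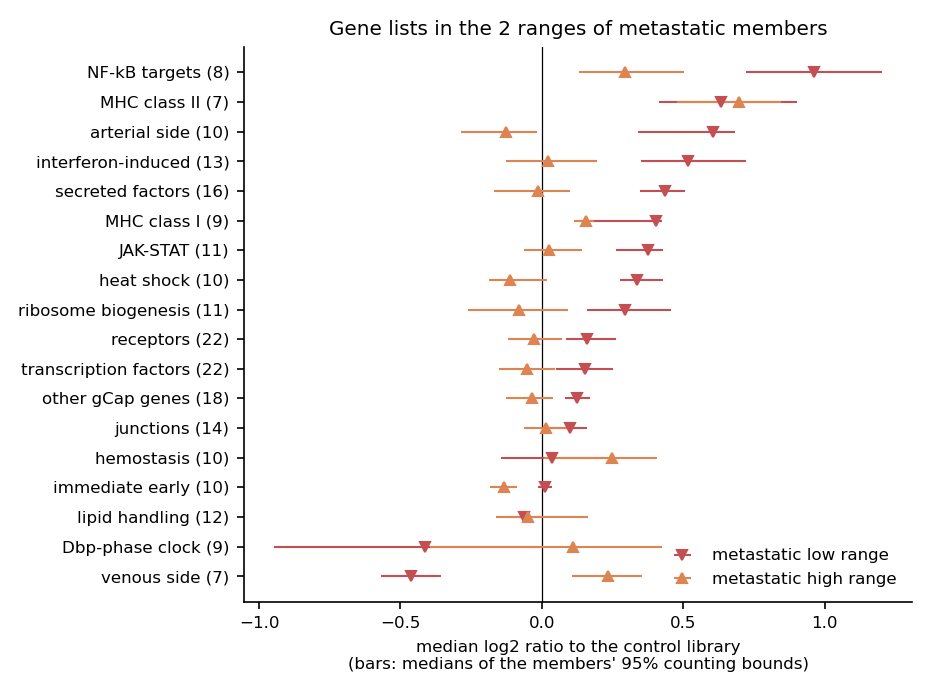
Median log2 ratios of metastatic to control resting general capillary cells (x axis) for the gene lists (y axis), in the low range and in the high range, with the median of the genes' 95% counting bounds as bars. The NF-kB, arterial, interferon and secreted signal lists lie to the right of 0 in the low range and nearer 0 in the high range, whereas MHC class II lies near 0.65 in both ranges.

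Genes of the arterial side had a median of 0.35, and 2 of 10 were past the limit upwards. The connexin gene Gja4 stood at 123 and 214 CPM (0.80, 0.73 to 0.86), Sox17 at 206 and 271 CPM (0.40) and Tm4sf1 at 653 and 894 CPM (0.45), whereas Efnb2 stood at 497 and 506 CPM (0.03). In the low range the median was 0.61, with 6 of 10 past the limit, and in the high range −0.13, with none. Of 7 genes of the venous side Vcam1 and Ackr3 (0.52) were past the limit upwards and Prss23 downwards. The list had medians of −0.12 over all members, −0.46 in the low range and 0.23 in the high range. Prss23, a serine protease gene, stood at 82.6 and 53.8 CPM (−0.62) and, by range, at 84.4 CPM in control members, 25.1 CPM in the low and 99.2 CPM in the high range. Lyve1, a hyaluronan receptor gene, stood at 2891 and 2248 CPM (−0.36), and its ratio was −1.09 in the low range and 0.36 in the high range.

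Among the clock genes that peak with Dbp, 4 of 10 were past the limit downwards, with a median of −0.38. They were Per1, Per2 (−0.52), Nr1d2 (−0.54) and Bhlhe41 (−0.70), and the last 3 stood at 5.70, 16.4 and 5.94 CPM in the control library. Genes of the opposite phase had a median of −0.09, and 0 of 4 were past the limit. Without Per1, which was in the score, the median of the first list was −0.41 in the low range and 0.11 in the high range.

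Lists that define the vessel wall differed little. Barrier genes had a median of 0.07, and 0 of 14 were past the limit, with Ptprb at 2880 and 2885 CPM and Esam at 596 and 621 CPM. Endothelial transcription factor genes had a median of 0.08, with Bcl6b (26.7 and 48.0 CPM, 0.85) and Lyl1 (7.02 and 10.8 CPM, 0.63) past the limit and Erg at 90.2 and 90.9 CPM. Genes of lipid handling had a median of −0.08, and Fabp4 alone was past the limit. Immediate early genes, which respond to tissue dissociation, had a median of 0.01, and 0 of 10 were past the limit, with Fos at 1767 and 1681 CPM. Genes of haemostasis had a median of 0.09, with thrombomodulin (Thbd) at 1286 and 981 CPM (−0.39).

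Heat shock genes had a median of 0.20, with Hspa1a (0.84), Hspa1b (0.99) and Hsph1 (0.90) of 10 past the limit. Genes of ribosome biogenesis had a median of 0.15, and 2 of 12 were past the limit: Odc1, which makes polyamines, at 32.0 and 48.0 CPM (0.58) and Myc at 0.88 and 3.83 CPM (2.12, 1.42 to 2.87). The further general capillary genes had a median of 0.04, with Tox3 (0.59) and Gja4 of 18 past the limit. The further aerocyte genes had a median of 0.02, with Kdr of 11 past the limit. In 3 proliferation genes with enough UMIs none was past the limit.

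The rule genes themselves differed, and are given as a description. Over all members Ptgs1, the cyclooxygenase-1 gene, stood at 335 and 218 CPM, Lpl at 1351 and 1027 CPM and Gpihbp1 at 1719 and 1490 CPM. Aplnr, the apelin receptor gene, stood at 40.8 and 63.6 CPM and Kit at 650 and 760 CPM. By range, Ptgs1 stood at 334 CPM in control members, 99.0 CPM in the low range and 399 CPM in the high range. Aplnr stood at 40.7, 77.5 and 40.4 CPM.

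A few genes outside the naming rule were looked at after their values had been seen. Among the lowest in the low range were Fkbp14 (−2.28), the sulfotransferase gene Sult1a1 (−2.27), Tnik (−2.07) and Stt3b, a subunit of oligosaccharyltransferase, at 570 CPM in control members and 148 CPM in the low range. Among the 12 genes higher in the high range were Gsn, which encodes the actin-severing gelsolin, at 25.01 and 59.0 CPM, and Mgp, matrix Gla protein, at 37.0 and 71.997 CPM in control members and the high range. Gsn and Mgp had ratios of −0.64 and −0.87 in the low range. The phosphatidate phosphatase gene Lpin1 stood at 61.9, 18.9 and 108 CPM in control members, the low range and the high range.

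Globin, surfactant and Fabp4 transcripts varied most between members. Beyond counting error, the squared coefficient of variation had a median of 0.18 in control and 0.20 in metastatic members over 3417 genes. The 15 genes with the most excess variance were 4 globin genes (Hba-a1, Hba-a2, Hbb-bs, Hbb-bt), 3 surfactant genes (Sftpa1, Sftpb, Sftpc), Lyz2, Fabp4, Lrg1, Npc2, Rgcc, Pdzd2, Cyr61 and Cd74. Surfactant transcripts belong to alveolar epithelium, and 11 control and 9 metastatic members held 93.8% and 93.9% of them. Without the 1% of members highest for Cd74, its values were 115 and 294 CPM, a ratio of 1.36. Lrg1 had its top 1% of members hold 31.1% and 33.2% of its UMIs. Zbtb16 went from an excess of 0.13 in control to 1.62 in metastatic members, and Fkbp5 from 0.48 to 2.14.

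Members with a single marker of arteries were compared with those with a single marker of veins. There were 286 control and 237 metastatic members with 1 arterial gene of the rule and 177 and 164 with 1 venous gene. Between these, Cxcl12, a chemokine gene of arterial endothelium, was higher on the arterial side by 1.78 in the control and 1.84 in the metastatic library on the log2 scale. Efnb2 was higher by 1.60 and 1.15 and the Notch ligand gene Dll4 by 1.36 and 1.20. On the venous side Prss23 was higher, at −1.76 and −1.65, and Nr2f2, the venous identity factor COUP-TFII, at −1.39 and −1.46. The rule genes Ptgs1 (−1.35 and −1.37) and Lpl (0.60 and 0.67) also differed. Other genes did not follow this order. Sox17 had −0.12 and −0.09, Vwf, the von Willebrand factor gene, 0.14 and 0.10, and the venous receptor gene Ephb4 0.13 and 0.03. Vcam1 had 1.01 in the control and −1.30 in the metastatic library.

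Comparisons with other endothelial cells rest on the genes that defined the gates and are a description. In both libraries, 260 of 3961 genes (6.56%) were at least 2-fold higher in members than in aerocytes (704 and 549 cells) and 271 (6.84%) at least 2-fold lower. Plvap, which forms the diaphragms of fenestrae and caveolae, stood at 1356 CPM in control members and 57.8 CPM in control aerocytes, and Cd93, a C-type lectin-like receptor gene, at 2542 and 97.1 CPM. Their ratios were 4.55 and 4.71 in the control library and 4.06 and 3.92 in the metastatic library. Cadm1, an adhesion gene, and Hmcn1, a basement membrane gene, were higher by 4.54 and 4.92 in the control and by 3.83 and 3.91 in the metastatic library. Chst1, a sulfotransferase gene, was lower in members by −5.94 and −5.90 and Rprml by −6.08 and −6.00. The 7 MHC class II genes were all higher in members, with medians of 3.87 and 3.67.

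Differences from arterial cells, which were set without a limit on general capillary markers, were fewer. Of 3693 genes, 110 (2.98%) were higher in members than in arterial cells (58 and 50 cells) and 107 (2.90%) lower. Mgp stood at 37.3 CPM in control members and 2157 CPM in control arterial cells, ratios of −5.86 and −5.68, and Cytl1 had ratios of −6.97 and −7.44. Higher in members were Cd74 (2.887 and 3.096), the transcription factor gene Sox11 (3.78 and 2.55) and Chrm2 (3.13 and 2.44). These rest on 5 to 16 UMIs in the arterial cells of a library.

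Of 3695 genes, 98 (2.65%) were higher in members than in venous cells (204 and 218 cells) and 133 (3.60%) lower. Sema3g, a semaphorin gene, had ratios of 3.35 and 3.95, Efnb2 2.92 and 2.99, Dll4 2.96 and 3.01, and Car4, a carbonic anhydrase gene, 3.02 and 2.83. Lower in members were the inducible cyclooxygenase gene Ptgs2 (−6.91 and −6.66), the transcription factor gene Foxc1 (−7.14 and −7.05) and Cpe, carboxypeptidase E (−7.03 and −8.29). None of the 7 MHC class II genes was past the limit against venous cells, with medians of −0.28 and 0.16, beside 2.75% of 9641 genes higher and 2.52% lower at the filter of the lists.

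**Figure D5:**
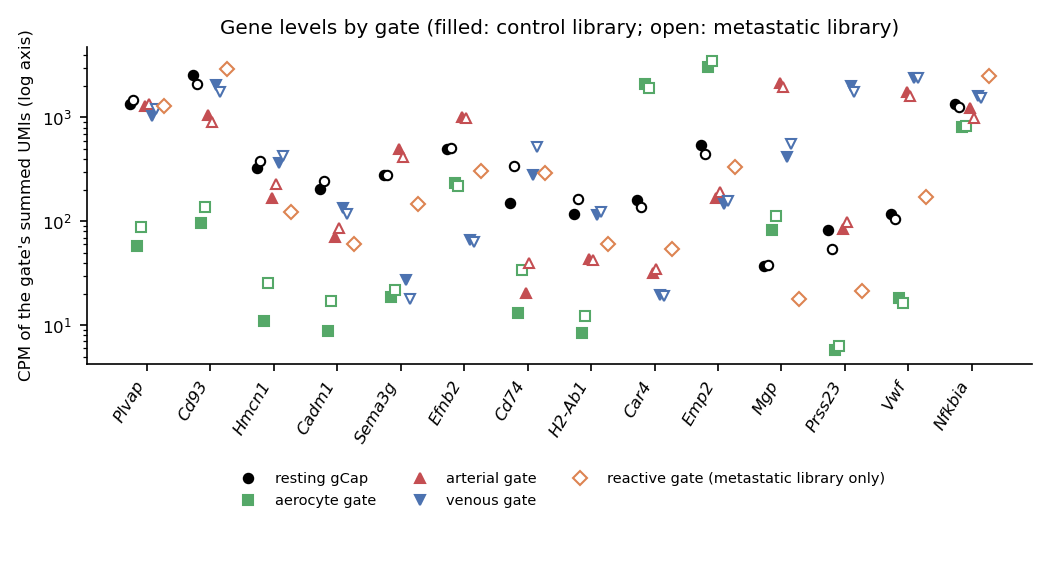
Levels of 14 genes (x axis) in CPM on a log axis (y axis) in resting general capillary cells, aerocytes, arterial, venous and reactive cells, filled points for the control and open points for the metastatic library. Reactive cells are shown for the metastatic library only. Plvap and Cd93 stand far higher in resting general capillary cells than in aerocytes in both libraries, and Mgp stands far higher in arterial cells than in resting general capillary cells.

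Reactive cells were compared in the metastatic library only, since 34 cells were found there and 3 in the control library. Of 4223 genes, 592 (14.0%) were at least 2-fold higher in resting members and 490 (11.6%) at least 2-fold lower. With 278492 UMIs in the reactive cells, many of these ratios rest on few UMIs. Lower in resting members were Csf2, the GM-CSF gene (−7.06), Sox9 (−6.21) and Mt1 (33.3 against 1975 CPM, −5.89). At the filter of the lists 18.6% of 9567 genes were higher and 9.41% lower. All 9 NF-kB genes were at least 2-fold lower in resting members, with a median of −2.26, and 10 of 12 genes of ribosome biogenesis, with a median of −2.09. Heat shock genes had 5 of 10 lower, with a median of −0.69. Of the 33 reactive cells that could be scored 26 had low scores (78.8%, 61.1 to 91.0), beside 53.6% of resting members.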

How the data were processed

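Droplet single-cell 3′ RNA libraries were aligned to mm10 and counted with Cell Ranger by the authors, who deposited raw UMI counts per gene and barcode. The matrix headers name Cell Ranger 3.1.0. No count was normalized before deposit. Barcodes were called and filtered as the opening states. Doublets were scored against simulated doublets (407 control and 334 metastatic barcodes marked) and none was left out. Counts of members were summed per library and given as CPM (UMIs per 1e+06). Ratios have exact conditional binomial intervals and shares Clopper-Pearson intervals, all 95% and for counting error only. A gene was past the limit at a log2 ratio of 0.5 between libraries, or of 1 in both libraries between cell types, with at least 50 CPM (between libraries also 100 UMIs) and rule genes left out. Lists counted and took medians over genes with at least 100 UMIs at any CPM, and shares of all genes at that filter stand beside them. Named genes were the 12 highest and 12 lowest between libraries, the 10 highest and 10 lowest against each cell type, the 15 most variable and all list genes. Other cell types were set by their marker set (at least 2 genes) and at most 1 gene of the other sets. Aerocytes also held under 3 of the 6 general capillary markers and reactive cells at least 3. Arterial and venous cells had no limit on these markers. Lymphoid cells were called barcodes with at least 2 lymphoid markers and under 2 of the 4 endothelial genes of the rule. Reactive cells were used in the metastatic library only, a departure from the plan, since the control library held 3. Cells were thinned to 2000 UMIs for shares of cells. The members and lists were chosen with earlier results of these data known. The ranges, and the settings that use them or unshared free RNA, were chosen after seeing the data. Some genes counted in the lists are not reported here by name. The code was tested on simulated data. Python 3.11.15, numpy 2.4.6, scipy 1.17.1, pandas 2.3.3, scikit-learn 1.9.0 and matplotlib 3.10.9 were used, and gene positions came from GENCODE M21.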

Additional observations from a re-analysis of the deposited data

Results flagged for a closer look

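Fabp4 had a metastatic to control log2 ratio of −0.65 (−1.24 to −0.09) in aerocytes, opposite to 1.05 in resting general capillary cells, and the difference was not tested. Hba-a1 had a ratio of 1.95 in venous cells and −0.85 in resting general capillary cells, with the difference not tested. Hba-a2 had 2.09 in venous cells and −0.87 in resting general capillary cells, likewise untested. Hbb-bs had 2.15 in venous cells and −0.95 in resting general capillary cells, also untested. With 1 library per group each of these is a pair of values that lie on opposite sides of 0.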

How the results depend on the processing

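No paired analysis was possible because each group is 1 library. For that reason no replicate could be left out either, and depth limits only the counting error. The difference in the share of members was −8.08 points with at least 4 of 6 markers and −7.57 after thinning, against −4.63. The count of genes past the limit was 98 with at least 4 markers, 91 after thinning, 337 at 10 CPM, 421 with the low range alone and 22 with the high range alone, against 150. The glucocorticoid median was −0.43 with at least 4 markers, −0.47 after thinning, −0.73 with free RNA subtracted and −0.70 with that of unshared barcodes, against −0.59, and it was not computed within ranges, which are cut on its genes. With the high range alone the NF-kB median was 0.29, against 0.73, and the Dbp-phase clock median reversed to 0.11. At 10 CPM the counts against aerocytes, arterial, venous and reactive cells were 1059, 480, 499 and 2549, against 531, 217, 231 and 1082, as more genes were counted. Reversed with the high range alone were Tmtc2 (−0.047), Nckap5 (−0.12), Hspa1b (−0.16), Pcp4l1 (−0.35), Fam107a (0.086), Myrip (0.066), Bcl2l1 (0.040) and Sgms1 (0.064). The range settings use fewer cells chosen on the score, and for the other changes the cause was not tested. Of 288 planned values for named genes 288 kept their direction and 282 stayed past the limit. Hbb-bs, Hba-a1 and Hba-a2 lost it with at least 4 markers (−0.49, −0.42 and −0.40) and with 0 genes of each excluded set (−0.32, −0.34 and −0.27). Of the 24 genes 17 moved beyond counting error with at least 4 markers, 17 after thinning, 9 with 0 of each excluded set and 9 with free RNA subtracted. Arterial cells gave no value with 0 genes of each excluded set or after thinning, nor did reactive cells there or with at least 4 markers, since under 30 cells were left.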

Other observations

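A few members carried a distinct set of genes. Of all members, 10 control and 11 metastatic ones held at least 10 UMIs of Fabp4, and they are named after their values had been seen. Their Fabp4 stood at 29265 and 55547 CPM, against 5.35 and 13.7 CPM in the other members. Timp4, a metalloproteinase inhibitor gene, stood at 1283 and 1735 CPM, against 0.28 and 0.19 CPM. Tcf15, a transcription factor gene, stood at 295 and 736 CPM, and Gpihbp1 at 4352 and 4338 CPM. Genes of lung capillaries were low in these members: Hpgd stood at 503 and 905 CPM, against 7855 and 6060 CPM, Foxf1 at 69.3 and 75.4 CPM, against 401 and 366 CPM, and Kit at 34.7 and 56.6 CPM, against 651 and 762 CPM. The values of Kit in these members rest on 2 and 3 UMIs and those of Foxf1 on 4 and 4 UMIs. The fat cell gene Cfd stood at 17.3 and 1226 CPM, which are 1 and 65 UMIs.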
